A study of Mus musculus with 3 samples.

Results

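The Cxcl14 Mme FAPs are a set of fibro-adipogenic progenitors (FAPs) of the mouse diaphragm, chosen here for having the gene set Cxcl14, Mme, Hsd11b1 and Kcnk2 as their highest of 7 marker sets. They number 1062 of 5808 FAPs, or 18.3% (95% exact Clopper-Pearson interval 17.3 to 19.3), among 12275 cells in all. A cell was taken as a FAP when it had at least 1 UMI of Pdgfra, at least 3 UMIs of Dcn and 0 UMIs of Ptprc, Pecam1 and Pax7, where a UMI stands for 1 captured RNA molecule. Each FAP was then scored for 7 sets of 4 genes by the mean z-score of log-normalised counts, and it joined the set with the highest score. The 4 genes that chose the members therefore describe the class and are no evidence for it.

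The cells came from 3 single-cell RNA-Seq libraries of digested costal diaphragm, 1 library for each group. WT CD came from C57Bl/6J mice on control diet (CD), WT HFD from C57Bl/6J mice on high-fat diet (HFD, 45% of energy from lipid), and KO HFD from Thbs1-null mice (B6.129S2-Thbs1tm1Hyn/J) on the same HFD, each for 6 months. According to the study's text, all mice were male, the diets began in young adulthood and a pair of mice was pooled for each library, and per the labels' protocol dead cells were removed by flow cytometry. The Thbs1 deletion is in the whole body rather than in FAPs alone, and the KO strain and its genetic background cannot be told apart from the loss of Thbs1. Since the mice of a library cannot be separated and each group is 1 library, no test between groups was possible, no p-value is given, and all intervals cover counting error only.

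FAPs are PDGFRα-expressing stromal cells that lie between myofibers, lay down extracellular matrix, secrete factors that act on muscle stem cells (MuSCs), and can become adipocytes or fibroblasts when muscle is injured or overfed. Cxcl14 encodes a secreted chemokine-like protein, Mme the cell-surface peptidase neprilysin, which trims peptide hormones, Hsd11b1 the enzyme that makes active glucocorticoid from its inactive 11-keto form, and Kcnk2 the mechanosensitive potassium channel TREK-1. Stromal cells with Cxcl14 and Mme are known in limb muscle as FAPs with a high capacity to form fat. In the coordinates of the GRCm38 annotation, Cxcl14 lies at chr13:56288643-56296551 on the minus strand, Mme at chr3:63241537-63386030 on the plus strand, and Hsd11b1 (chr1:193221634-193264075) and Kcnk2 (chr1:189207930-189402273) lie on the minus strand of the same chromosome.

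The libraries held 4132 cells and 34312860 UMIs (WT CD), 3774 cells and 31967976 UMIs (WT HFD), and 4369 cells and 36478779 UMIs (KO HFD). The Cxcl14 Mme FAPs contributed 321 cells with 2445120 UMIs, 347 cells with 2921534 UMIs, and 394 cells with 3068848 UMIs in the same order. Their median depth was 7296, 8275 and 7347.5 UMIs per cell, under that of the other FAPs of the same libraries (8816, 9487 and 8730), and their median mitochondrial share over the 3 libraries was 3.35% against 2.87%. WT CD and WT HFD shared 7 cell barcodes, WT CD and KO HFD shared 7, and WT HFD and KO HFD shared 2. Levels are given as CPM, for which the UMIs of each gene were added up across a library's cells of one kind and expressed per 1000000 UMIs of those cells.

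Thbs1, the gene disrupted in the KO mice, was counted at 339 CPM (316 to 363) in the Cxcl14 Mme FAPs of WT CD, 379 (357 to 402) in WT HFD and 400.5 (378 to 424) in KO HFD. No library was low, nor was any among the other FAPs (173, 210 and 196 CPM). The chemistry reads only the 3′ end of a transcript, so a count there checks nothing about a disruption elsewhere in Thbs1 (chr2:118111876-118127133, plus strand), and KO HFD below means the library that carries that label.

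One feature set WT CD apart. Its FAPs held immunoglobulin RNA that plasma cells and B cells make: Igkc, the kappa light-chain constant gene, stood at 54.8 CPM in the Cxcl14 Mme FAPs of WT CD, 1.71 in WT HFD and 2.61 in KO HFD. In WT CD the 134 Igkc UMIs were spread over 90 of the 321 cells, with 12 in the cell that held most. The other FAPs of WT CD held 2195 CPM, of which 19493 of 33083 UMIs came from 1 cell, and those of KO HFD held 517 CPM, of which 7995 of 8055 UMIs came from 1 cell. Its part in the other differences from WT CD was not tested.

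Among members, 312 (29.4%) had a UMI of all 4 genes of the rule, 451 (42.5%) of 3, 270 of 2, 29 of 1 and 0 of none. Among the other 4746 FAPs, 31 had all 4 and 1901 (40.1%) had none. The median score for the set was 1.04 in members and −0.22 over all FAPs, and the median lead over the next set was 0.73. The boundary was not a gap: 82 members and 121 other FAPs lay within 0.1 of it, the 20 members nearest to it had a lead of 0.00378 to 0.0283, and the 20 nearest non-members one of −0.0195 to −0.00302.

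Cxcl14 stood at 2156 CPM (2098 to 2215) in WT CD members, 2136 in WT HFD and 2138 in KO HFD, and at 150, 140 and 173 CPM in the other FAPs. Mme stood at 127, 167 and 152 CPM in members against 14.3, 23.5 and 19.3 in other FAPs. Hsd11b1 stood at 564, 473 and 425 CPM against 117, 82.0 and 66.3. Kcnk2 stood at 198, 167 and 191 CPM against 35.0, 47.0 and 41.6. In members Cxcl14 differed little over the libraries, while Hsd11b1 was highest in WT CD in both groups of cells. Cells were split on these genes, so their levels here and in the comparisons below cannot show whether the genes differ between libraries. The summed levels of members lay above those of other FAPs for each of these genes, on which the members were chosen. Single cells did overlap: 17.2% of other FAPs held a UMI of Cxcl14, 13.2% of Mme, 36.1% of Hsd11b1 and 21.1% of Kcnk2.

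Free RNA in droplets could place some of these UMIs, so shares of cells with a UMI were set beside cell types that should lack the genes. Cxcl14 was found in 81.6% of members (73.2% with each cell thinned to 3000 UMIs), in 17.2% of other FAPs (12.5% thinned), in 2.02% of 1733 leukocytes (cells with a Ptprc UMI, median depth 8513) and in 0.302% of 992 endothelial cells (cells with a Pecam1 UMI, median depth 3836.5). Mme was found in 63.7% of members (36.3% thinned), 13.2% of other FAPs, 0.115% of leukocytes and 0 of 992 endothelial cells (3 cells of 992, the limit that a count of 0 allows, is a share of 0.302% of cells with a UMI at their lower depth). Over all 5808 FAPs, before any choice by these genes, the shares were 29.0% for Cxcl14 and 22.4% for Mme (median depth 8725), above those in leukocytes of similar depth. Hsd11b1 was found in 87.9% of members but also in 44.6% of 789 MuSCs (cells with a Pax7 UMI), where its level was 121 CPM, so it marks more than FAPs.

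The FAP label was checked against 8 defining genes. Of these, Pdgfra (463, 471 and 538 CPM), Pdgfrb, Dcn, Osr1, Ly6a, Cd34 and Col1a1 were within 1.5-fold of the other FAPs, and Lum, which encodes the collagen-binding proteoglycan lumican, was higher (2178, 2175 and 2252 CPM against 1343, 1357 and 1449). Pdgfra and Dcn were part of the gate, which all FAPs passed, so their levels are no check of the label. The adipocyte genes Adipoq, Cidec, Lep and Retn were at 0 UMIs in all members, and the list of 5 summed to 0.409, 0.342 and 0 CPM. Pparg, the master regulator of adipocyte formation, was found in 1.32% of members and 1.18% of other FAPs, and Cebpa, its partner, in 11.1% and 14.3%. At this depth few or no transcripts of adipocytes were thus found.

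Markers of other cell types summed to low levels, with 2 exceptions. Macrophage markers (Cd68, Lyz2, C1qa, Adgre1 and Csf1r, none at 0) summed to 15.1, 106 and 11.1 CPM in WT CD, WT HFD and KO HFD members, led by Lyz2. Tenocyte markers summed to 459, 478 and 506 CPM, nearly all from Thbs4 (469 CPM over the libraries), and to more in other FAPs (1041, 1118 and 898). Of the MuSC markers, Pax7, Myf5, Cdh15 and Myod1 were at 0 (Pax7 by the gate) and Vcam1 led. T or NK cell markers were at 0, B cell markers summed to 15.1, 0.685 and 1.63 CPM, mural markers to 35.6, 37.7 and 46.6 (Cspg4 leading), myofiber markers to 37.2, 39.0 and 32.6 (Acta1 leading), mesothelial markers to 18.4, 18.1 and 27.0 (Wt1 leading), endothelial markers to 2.45, 4.79 and 2.61 (Kdr leading), Schwann cell markers to 6.95, 0.685 and 1.96 (Mbp leading, Sox10 at 0), and erythroid markers to 5.32, 1.71 and 1.63 (Hbb-bs leading). The proliferation genes Mki67, Top2a, Birc5 and Ube2c summed to 1.64, 1.71 and 30.0 CPM, but all 9 Mki67 UMIs lay in 1 KO HFD cell, and the top cell for each gene held 96.4% of the members' Ube2c UMIs and 75% of those of Top2a and of Birc5.

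The share of FAPs in the class was close in the 3 libraries. It was 16.6% in WT CD (321 of 1930; 15 to 18.4), 19.5% in WT HFD (347 of 1779; 17.7 to 21.4) and 18.8% in KO HFD (394 of 2099; 17.1 to 20.5). WT HFD exceeded WT CD by 2.87 percentage points (0.397 to 5.36), and KO HFD lay below WT HFD by 0.73 points, with an interval of the difference (KO minus WT) from −3.23 to 1.74. The diet difference kept its sign under 10 other ways of choosing the members, ranging from 1.04 to 3.70 points, but its counting interval held 0 in 5 of them. As a share of all cells the members were 7.77%, 9.19% and 9.02%, which also depends on how well other cell types were released from the tissue.

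**Figure D1:**
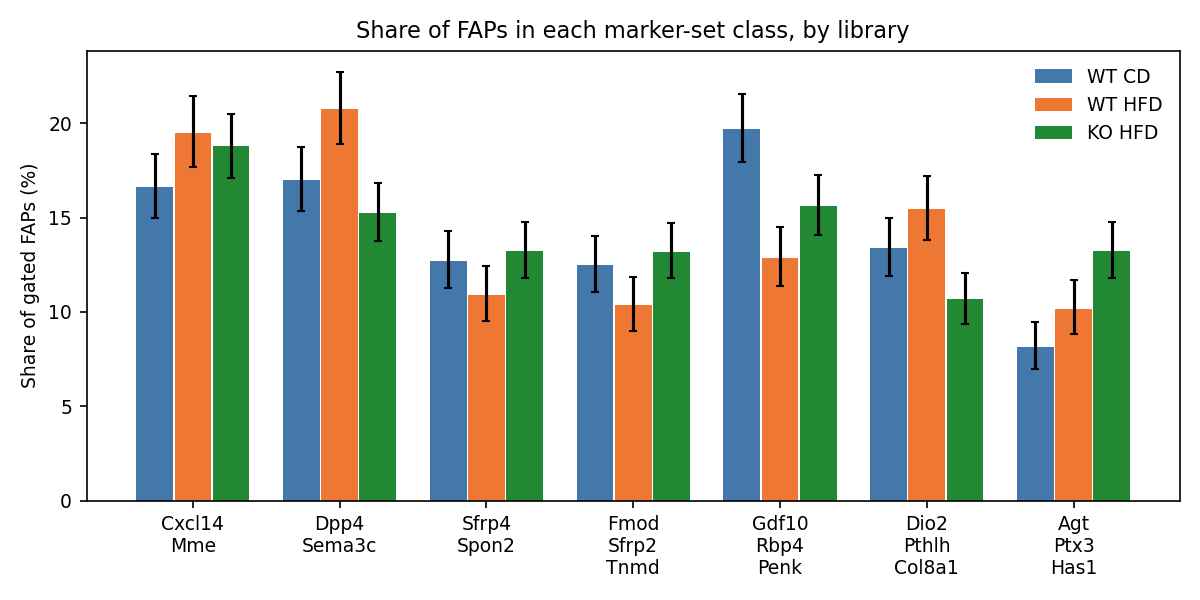
Share of gated FAPs (%, bars; lines are 95% exact binomial intervals, counting error only) in each of the 7 marker-set classes for each library. The Cxcl14 Mme bars, at the left, stand at 16.6, 19.5 and 18.8% with overlapping intervals.

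Between diets 2 of the other 6 classes differed by more points. The Gdf10 Rbp4 Penk FAPs were 19.7% of FAPs in WT CD and 12.9% in WT HFD, a difference of −6.82 points (−9.17 to −4.45), and the Dpp4 Sema3c FAPs differed by 3.75 points (1.23 to 6.27). The other 4 differed by −2.14 to 2.09 points. Between genotypes all 6 differed by more points than the Cxcl14 Mme FAPs, from 2.34 points (0.274 to 4.38) for the Sfrp4 Spon2 FAPs to −5.5 (−7.94 to −3.07) for the Dpp4 Sema3c FAPs, which were 20.7% in WT HFD and 15.2% in KO HFD. Shares sum to the whole, so a class with a constant number of cells per muscle would still shift when another class does.

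In members the median score of every other marker set was negative, from −0.57 for Dpp4 Sema3c to −0.22 for Dio2 Pthlh Col8a1. The second-highest set of each member, called here the one the member leaned to, was read from the same scores that chose the members. It therefore does not show which FAPs the members lay closest to. It was Dio2 Pthlh Col8a1 in 332 members (31.3%), Gdf10 Rbp4 Penk in 277 (26.1%), Agt Ptx3 Has1 in 173 (16.3%), Fmod Sfrp2 Tnmd in 107 (10.1%), Dpp4 Sema3c in 103 (9.70%) and Sfrp4 Spon2 in 70 (6.59%). Over the libraries Cxcl14 varied with it, from 1115 CPM (1047 to 1186) in members leaning to Dpp4 Sema3c to 2946 (2873 to 3021) in those leaning to Gdf10 Rbp4 Penk. In KO HFD, however, the highest level was in those leaning to Sfrp4 Spon2 (3025 CPM against 2763 for Gdf10 Rbp4 Penk). Mme varied less, from 122 to 174 CPM. Postn, which encodes the matricellular protein periostin, was at 147 CPM (133 to 162) in members leaning to Dio2 Pthlh Col8a1 and at 9.0 to 22.3 CPM in the other 5 groups. Thbs1 was highest, 582 CPM (541 to 625), in those leaning to Agt Ptx3 Has1. Ret was highest, 148 CPM (124 to 175), in those leaning to Dpp4 Sema3c.

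Beyond the genes of the rule, the genes highest in members over other FAPs included the receptor genes Gfra1, Ret and Lifr and the secreted factor genes Nppc, Vtn and Ccl11, and the matrix lists had 9 of 14 basement membrane genes higher and 9 of 21 interstitial ones lower. Of 2953 genes outside the rule with at least 50 CPM in members or other FAPs, 157 (5.32%) were at least 1.5-fold higher in members and 124 (4.2%) at least 1.5-fold lower, with a median log2 ratio of 0.03. Of 2913 genes compared in every library, 114 were higher and 94 lower past 1.5-fold in each of the 3. Members were chosen on expression, so these counts are a description and were not tested. The 14 genes named here for the largest ratios in all 3 libraries were each at their highest in the Cxcl14 Mme FAPs among the 7 classes, in every library. They were chosen for being high in members, so this largely restates the choice and is no further evidence.

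**Figure D2:**
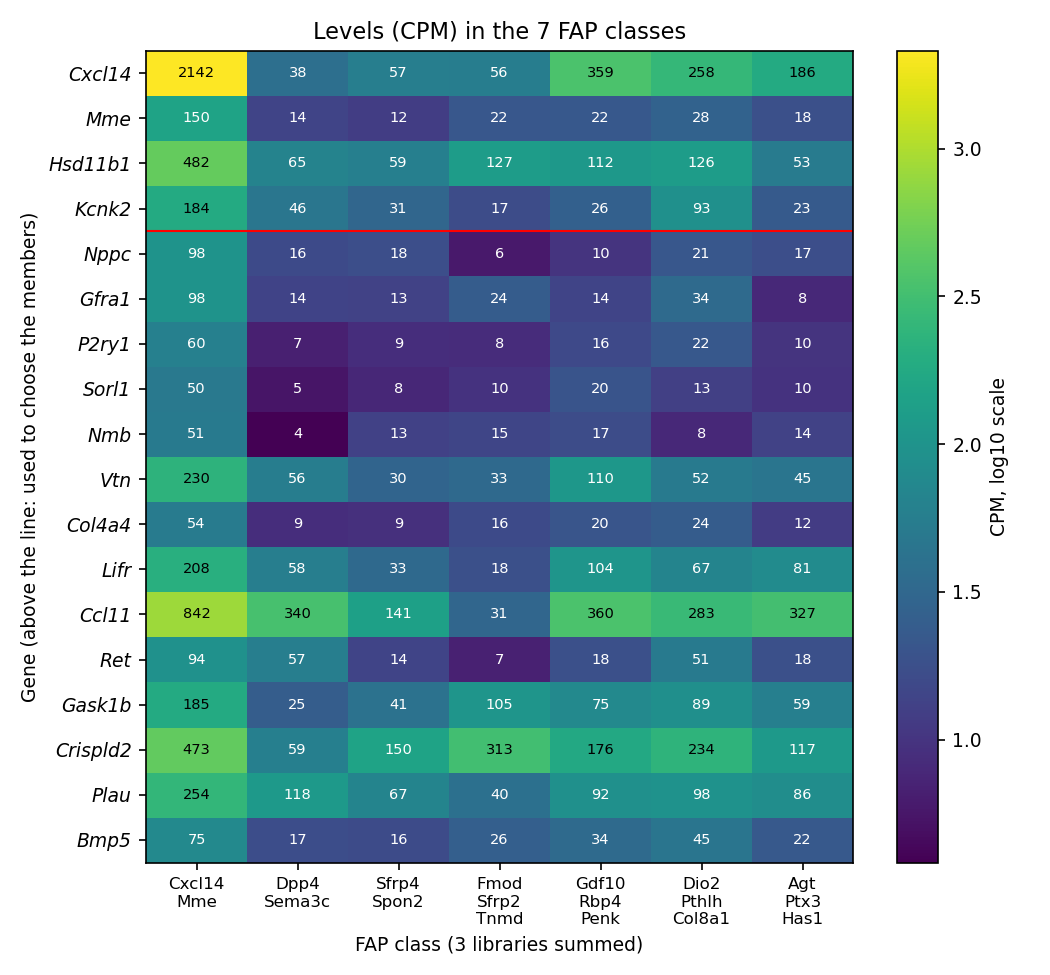
Levels (CPM, printed in each cell; colour on a log10 scale) of the 4 genes that chose the members (above the line) and the 14 named genes outside the rule, in the 7 FAP classes with the 3 libraries summed. The left column, the Cxcl14 Mme FAPs, holds the highest value of every row, and all these genes were chosen for being high there.

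Among receptors, Gfra1 (chr19:58235604-58455909, minus strand), the co-receptor that binds glial cell line-derived neurotrophic factor (GDNF), stood at 84.7, 106 and 101 CPM in WT CD, WT HFD and KO HFD members and at 16.2, 19.9 and 16.8 CPM in other FAPs. Ret (chr6:118151745-118197718, minus strand), the receptor tyrosine kinase that signals for GDNF through such co-receptors, stood at 92.4, 103 and 86.0 CPM against 24.3, 38.6 and 29.9. In every library the members were higher for both. Over the libraries the ratios were 5.57-fold for Gfra1 and 3.05-fold for Ret, and the class with the next highest level was Dio2 Pthlh Col8a1 for Gfra1 (33.9 CPM) and Dpp4 Sema3c for Ret (57.2 CPM). UMIs of both genes were found together in 211 members, 19.9% (17.5 to 22.4), and in 3.54% of other FAPs, where the product of the single shares was 18.4% and 1.95%. In members the product thus lay inside the counting interval. Gdnf itself was at 0 UMIs in members in all 3 libraries. Both genes were nearly absent from leukocytes (0.577% of cells for Ret and 0.173% for Gfra1), while Gfra1 was found in 30.0% of MuSCs.

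Lifr, the receptor subunit shared by leukemia inhibitory factor and ciliary neurotrophic factor (CNTF), stood at 175, 238 and 206 CPM in members and at 51.9, 67.1 and 65.2 CPM in other FAPs. Members were higher in each library. Of its partners, the signalling subunit Il6st was at 139, 162 and 160 CPM in members against 122, 139 and 139 in other FAPs, a ratio of 1.16-fold, and the CNTF-binding subunit Cntfr at 31.5, 27.0 and 31.6 against 21.2, 13.5 and 19.3. The receptors and ligands of these families were listed after values had been seen, and they did not all lie higher in members. P2ry1, a receptor for extracellular ADP, was at 60.2 CPM over the libraries (5.12-fold over other FAPs), and Sorl1, a sorting receptor, was higher by 4.71-fold.

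Among secreted factors, Ccl11 (eotaxin, which attracts eosinophils) stood at 901, 804 and 830 CPM in members and at 260, 257 and 265 CPM in other FAPs, a ratio of 3.23-fold. Vtn, encoding the adhesion protein vitronectin, stood at 249, 189 and 252 CPM against 56.0, 40.2 and 69.6. Nppc, encoding C-type natriuretic peptide, stood at 52.3, 91.4 and 141 CPM against 12.5, 13.9 and 18.2, and had the largest ratio of the named genes (6.57-fold). The members were higher in all 3 libraries for each of these. Nppc came from few cells: 23.4% of members held a UMI, while MuSCs held 1015 CPM. Mme is known to cleave C-type natriuretic peptide. Bmp5, a bone morphogenetic protein, stood at 75.7, 76.0 and 73.0 CPM against 23.4, 26.1 and 29.7, and no UMI of it was found in 789 MuSCs or 1733 leukocytes, where a count of 0 allows up to 3 cells with a UMI, or 0.38% and 0.173%. Nmb (neuromedin B), Plau (urokinase), Crispld2, Gask1b and the collagen gene Col4a4 completed the 14, at 4.65-, 2.90-, 2.90-, 3.0- and 3.67-fold over other FAPs.

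Matrix genes were counted by kind. Of 14 measured basement membrane genes, 9 were higher in members, 5 within 1.5-fold and 0 lower, with a median log2 ratio of 0.76 against 0.03 over all genes. Col4a1, a chain of the basement membrane's collagen network, stood at 783, 993 and 909 CPM against 354, 542 and 477. Hspg2 (perlecan) stood at 567, 609 and 587 CPM against 265, 317 and 287. The other 7 were Col4a2, Col4a5, Lama2, Lamb1, Nid2, Col15a1 and Smoc2, and members were higher in each library for Col4a1 and Hspg2.

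Of 21 interstitial matrix genes, 2 were higher (Col5a3 and Col6a3), 10 within 1.5-fold and 9 lower (Col3a1, Col12a1, Col14a1, Fn1, Fbn1, Eln, Postn, Lox and Mfap5), with a median of −0.52. Fn1, encoding fibronectin, stood at 225, 275 and 284 CPM in members and 859, 1220 and 1185 CPM in other FAPs, and Col14a1, encoding a fibril-associated collagen, at 196, 195 and 222 against 770, 851 and 790. In both cases the members were below the other FAPs in all 3 libraries. Of the 10 genes with the smallest ratio, Col12a1 (21.2 CPM against 116 over the libraries), Igfbp3, which binds insulin-like growth factors (10.6 against 121), Sult1e1, the estrogen sulfotransferase (4.74 against 99.0), and Npr1, the receptor of atrial natriuretic peptide (11.7 against 57.3), were low in members. Mustn1, Ildr2, Sbsn and Plac8 were also among them. The last 2 were Igkc and Cxcl13. Without the top cell of each library, Igkc stood at 50.2, 1.37 and 2.29 CPM in members against 904, 2.63 and 3.86 in other FAPs. All 51 Cxcl13 UMIs of WT CD members lay in 1 cell.

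The study's text lists genes for its own FAP1 and FAP2 clusters, which it chose on these same libraries, so they are not independent evidence. Of the 3 measured FAP1 genes outside the rule, G0s2 (an inhibitor of the lipase that starts triglyceride breakdown), Vtn and Ccl11, all 3 were higher in members (median 1.69). Of 8 measured FAP2 genes, 0 were higher and 4 lower (Fbn1, Fn1, Cd248 and Mfap5; median −0.66). Thy1, a surface glycoprotein on that list, was found in 29.4% of members and 23.1% of other FAPs, and stood at 64.6, 68.1 and 53.8 CPM in members against 53.9, 69.5 and 40.0.

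**Figure D3:**
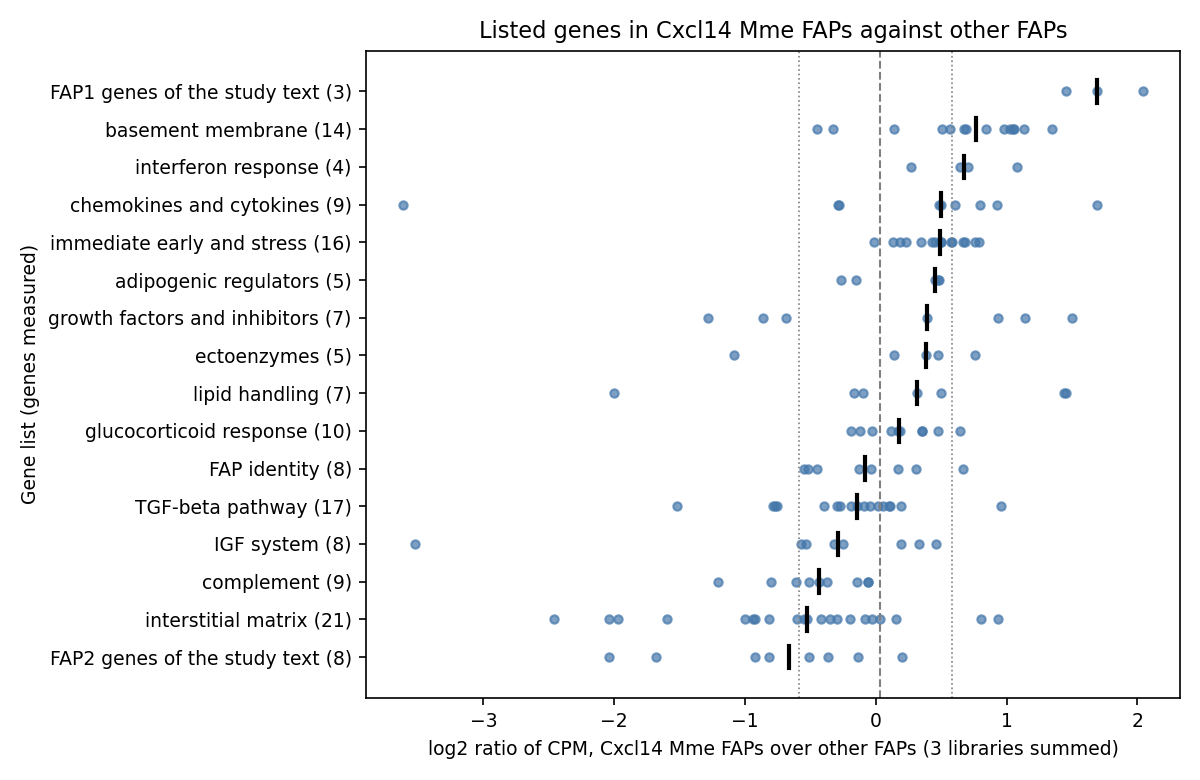
log2 ratio of CPM in the Cxcl14 Mme FAPs over other FAPs (x axis; 3 libraries summed) for each measured gene of each fixed list (rows, with the number measured; the longer marks are medians). Basement membrane genes lie more often to the right of 0 and interstitial matrix genes more often to the left, with medians of 0.76 and −0.52.

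Of 7 lipid genes, G0s2 and Ces1d (a carboxylesterase) were higher and Mgll (monoglyceride lipase) was lower, with a median of 0.32. Lpl, the lipoprotein lipase that releases fatty acids at the vessel wall, stood at 595, 727 and 699 CPM in members and 467, 592 and 577 in other FAPs, within 1.5-fold. Of 5 measured adipogenic regulators 0 passed 1.5-fold in either direction (median 0.45). Of 10 genes of the glucocorticoid response outside the rule 1 was higher, Tsc22d3 (298, 294 and 257 CPM against 171, 185 and 186), and 0 were lower. The glucocorticoid receptor gene Nr3c1 stood at 196, 219 and 209 CPM against 167, 199 and 192, within 1.5-fold.

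Of 9 chemokine and cytokine genes, Cxcl12, Cxcl1, Cxcl16 and Ccl11 were higher and Cxcl13 lower (median 0.50). Of 7 growth factors and inhibitors, Bmp2, Bmp4 and Bmp5 were higher and Fgf2, Fst and Fstl1 lower. Fst and Fstl1 encode follistatin and a related protein, and Bmp4 stood at 213, 208 and 255 CPM in members against 109, 121 and 124. Of 17 genes of the TGF-β pathway, Thbs1 was higher and Tgfb2, Tgfb3, Prg4 and Cilp lower (median −0.14). Over the libraries Thbs1 stood at 375 CPM in members and at 312 in both the Dio2 Pthlh Col8a1 and the Agt Ptx3 Has1 FAPs. The remaining classes stood at 124 to 159 CPM. Members were the highest class for Thbs1 in 2 of the 3 libraries. Of 9 complement genes 0 were higher and C4b, C7 and Cfb were lower (median −0.43). Of 8 genes of the IGF system Igfbp3 was lower, and of 5 ectoenzymes Enpp2 (autotaxin) was higher and Anpep lower. Of the potassium channel list 0 genes outside the rule reached 50 CPM.

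Of 16 immediate early and stress genes, 4 were higher in members (Fosb, Ier2, Hspa1a and Dnajb1), 12 were within 1.5-fold and 0 were lower, with a median of 0.49. Their summed level was 23715, 20170 and 25766 CPM in members and 17032, 15186 and 18091 in other FAPs. Such genes are known to be induced by tissue digestion. Of 4 interferon response genes Isg15, Iigp1 and Irgm1 were higher (median 0.67), but for Isg15 this held in KO HFD alone (44.6, 55.8 and 103 CPM against 42.9, 53.0 and 38.9). The part of handling in these levels was not tested.

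Between diets, members of WT HFD showed lower levels of the heat shock genes Hspa1a, Hspa1b, Hspb1 and Dnajb1 than members of WT CD. They showed higher levels of Lox, Mfap4, Ccl2, Ccl7 and Nppc. Of 20 sterol genes, listed after Fdps had been seen, 19 were lower, against 40.7% of all genes with at least 10 UMIs. Of 2942 genes that reached 50 CPM in WT CD or WT HFD, 32 (1.09%) were at least 1.5-fold higher in WT HFD and 28 (0.952%) at least 1.5-fold lower, with a median log2 ratio of 0.07. Each of these ratios had a counting interval that left out no change. At these UMI totals the 1.5-fold and 50 CPM thresholds alone lead to that, so it adds no support. With edgeR's TMM scaling the counts were 23 higher and 38 lower, so higher genes were 37.7% of the calls instead of 53.3%, with a median of −0.005. In the other FAPs, 22 of 2894 genes were higher and 24 lower.

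Sterol synthesis is run by the transcription factor SREBP2 (gene Srebf2), which is known to be activated when cell cholesterol falls. The list of 20 was drawn up after Fdps had been seen among the lower genes. Of the 20, 19 were lower in WT HFD than in WT CD and 1, Sc5d, was higher (log2 ratio 0.08). Of all 11501 genes with at least 10 UMIs in the 2 libraries together and at least 1 in each, 40.7% were lower. Only 5 of the 20 reached 50 CPM. Of these, Hmgcs1, Fdps, Insig1 and Srebf2 were lower by at least 1.5-fold and Sc5d was not. The 4 lower genes reached the minimum in WT CD alone (36.3, 44.2, 37.0 and 40.0 CPM in WT HFD). They thus entered through the library where they were high, so their count is no evidence on the list. Without that minimum 13 of the 20 were lower by at least 1.5-fold and 0 higher, against 6.41% and 9.33% of the 11501 genes. Some rested on few UMIs (Lss on 11 and 5), the counting interval lay below 0 for 9, and the median was −0.76, against −0.66 in the other FAPs, where 19 were also lower. The summed level was 629 CPM in WT CD, 381 in WT HFD and 386 in KO HFD members, and 537, 340.3 and 367 CPM in other FAPs, so WT CD was the high library in both groups of cells.

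Fdps, which makes farnesyl pyrophosphate, stood at 99.4 CPM (87.3 to 113) in WT CD, 44.2 (36.9 to 52.5) in WT HFD and 30.3 (24.5 to 37.1) in KO HFD. Scd2, a fatty acid desaturase on the lipid list, stood at 136, 68.5 and 71.7 CPM. For both the WT CD level stood alone, above both HFD libraries. The log2 ratios of WT HFD to WT CD were −1.17 (−1.49 to −0.86) for Fdps and −0.99 (−1.25 to −0.74) for Scd2, against −0.88 and −0.77 in other FAPs. Sqle (squalene epoxidase) had the lowest ratio of the list, −2.08 (−3.20 to −1.09), on 39, 11 and 17 UMIs. Idi1 followed the same course (42.1, 19.2 and 21.2 CPM), as did Hmgcs1 (60.9, 36.3 and 42.4), Insig1 (67.1, 37.0 and 43.7) and Srebf2 itself (61.3, 40.0 and 40.7).

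Apoe, which encodes a lipid-carrying apolipoprotein that macrophages also make in quantity, stood at 674, 340 and 468 CPM in members (log2 −0.99 for WT HFD against WT CD; −0.79 in other FAPs). C7, the complement component, stood at 235, 127 and 142 CPM (−0.89; −0.68 in other FAPs). Both were highest in WT CD. Angptl4, an inhibitor of Lpl that fatty acids are known to induce, lay just under the 50 CPM minimum and was chosen after its values were seen: it stood at 6.95, 47.2 and 36.2 CPM in members and at 15.4, 58.4 and 43.0 in other FAPs, low in WT CD in both.

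Heat shock genes were the other group. Of 16 immediate early and stress genes 3 were lower, the chaperone genes Hspa1a, Hspa1b and Dnajb1, and 0 were higher (median −0.33). Hspa1a and Hspa1b are near-identical copies whose reads may be split uncertainly, so their sum is the safer value: 945 CPM in WT CD, 404 in WT HFD and 535 in KO HFD, a log2 ratio of −1.22 (−1.33 to −1.12) for the diets. Hspb1, a small heat shock protein, stood at 568, 301 and 407 CPM (−0.92; −0.77 in other FAPs). WT CD was again the high library, with KO HFD in between. The median mitochondrial share had the same order in members (3.63, 3.15 and 3.29%) and in other FAPs (3.02, 2.74 and 2.86%). Its part in these levels was not tested. In a wider list of 18 chaperones, also drawn up after values had been seen, 14 were lower, 4 by at least 1.5-fold (40.7% and 6.41% over the 11501 genes), and the median was −0.20 in both members and other FAPs. Hspa4 went the other way but within 1.5-fold, at 57.3, 85.6 and 74.0 CPM. The other FAPs showed the same order for Hspa1b (243, 116 and 165 CPM).

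**Figure D4:**
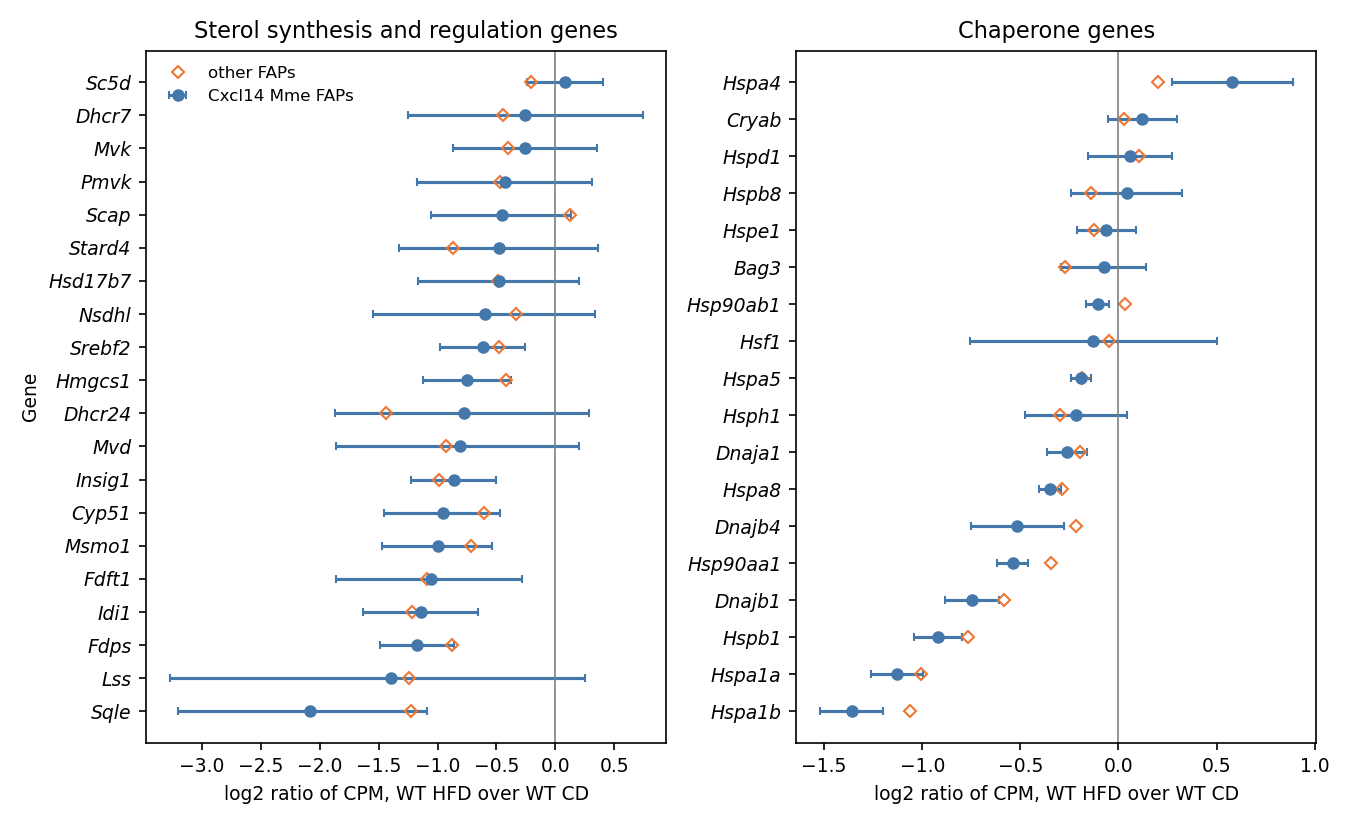
log2 ratio of CPM in WT HFD over WT CD for each of 20 sterol genes (left) and 18 chaperone genes (right), in the Cxcl14 Mme FAPs (filled points; lines are 95% intervals for counting error) and in other FAPs (open diamonds). On the left 19 of 20 filled points lie below 0, and on the right Hspa1b and Hspa1a lie lowest.

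Because these groups are known for shared promoter elements, the windows from 250 bases before to 50 bases after the RefSeq start of each gene (GRCm38.p6) were searched for the core of the sterol regulatory element, TCACNCCA, and for a unit of the heat shock element, GAANNTTC, on both strands. The first was present in 3 of the 15 sterol genes that had a promoter entry (of 20), and in 4.36% of all 32851 promoters. The second, which reads the same on both strands, was present in 9 of the 13 chaperone genes with an entry (of 18), and in 7.86% of all promoters. Hspd1 and Hspe1, which lie on opposite strands, share a site that was counted for each. A listed gene counted when any of its promoter entries matched, while the shares over all promoters count each entry. The 2 kinds of share are therefore not strictly comparable. Of the genes with a match, Hspa1a, Hspa1b and Hspb1 were lower by at least 1.5-fold between diets and the others were not. The chaperone gene Dnajb1, also lower, had no match. A match describes the letters and does not show that a factor binds there. The sterol matches are shown with 10 flanking bases on each side, 5′ to 3′ on the gene's strand, with the motif in capitals. They begin 137 bases (Hmgcs1, chr13:119690204-119690231, plus strand), 177 bases (Msmo1, chr8:64733738-64733765, minus strand) and 162 bases (Srebf2, chr15:82147097-82147124, plus strand) before the start.
Hmgcs1: cgtcaccgtcTCACCCCActtcccaggt
Msmo1: ctcactattcTCACTCCAtccgcgcagc
Srebf2: tgacgcaccaTCACCCCAtgagccgctt

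Hmgcs1 and Srebf2 hold the same 8 letters and Msmo1 differs in the free position of the motif. For the heat shock genes the match of Hspa1a (chr17:34972243-34972270, minus strand), 104 bases before the start, and the first of 2 of Hspb1 (chr5:135887792-135887819, plus strand), 117 bases before it, are shown in the same way because Hspa1b, Hspa1a and Hspb1 had the lowest diet ratios of the list (log2 −1.36, −1.13 and −0.92). The stretch of Hspa1b (chr17:34959325-34959352, minus strand) reads the same as that of Hspa1a.
Hspa1a: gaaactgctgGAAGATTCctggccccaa
Hspb1: ttcaacaagaGAAGTTTCcagatggggg

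Higher in WT HFD were 2 interstitial matrix genes of 19 (0 lower; median 0.23 against 0.07 over all genes). Lox, which cross-links collagen and elastin, stood at 58.1 CPM (48.9 to 68.5) in WT CD, 105 (93.3 to 117) in WT HFD and 108 (96.2 to 120) in KO HFD, and Mfap4, a microfibril-associated protein, at 386, 666 and 624 CPM. WT CD was low for both and the HFD libraries were close. Their log2 ratios were 0.85 (0.56 to 1.15) and 0.79 (0.67 to 0.90) in members, against 0.15 and 0.19 in other FAPs. Lox fell under 1.5-fold when Cxcl14, Mme or Hsd11b1 was left out of the rule (0.42 to 0.50). Of 14 basement membrane genes 0 passed 1.5-fold in either direction, with a median of 0.32.

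Has1, a hyaluronan synthase, stood at 33.5, 64.0 and 56.4 CPM (log2 0.93, 0.55 to 1.33), although it was one of the genes used to place cells in another class. Nppc was higher in WT HFD, at 91.4 CPM (80.8 to 103) against 52.3 (43.7 to 62.2), a log2 ratio of 0.80 (0.49 to 1.12), with 0.15 in other FAPs. WT CD was the lowest of the 3 libraries for both. Of 9 chemokine and cytokine genes Ccl2 and Ccl7, which attract monocytes, were higher and 0 lower (median 0.03). Ccl2 stood at 229, 399 and 346 CPM, but 56, 95 and 91 cells held all of it and its log2 ratio of 0.80 ranged from 0.30 to 1.05 over 15 alternatives. Ide, encoding insulin-degrading enzyme, stood at 35.2, 60.9 and 32.3 CPM, high in WT HFD alone.

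Among genes at 50 CPM or more, Lyz2 and Timp1 had the largest ratios of WT HFD to WT CD, and Lyz2 rested on few cells. Lyz2, a macrophage lysozyme, stood at 8.59, 64.3 and 5.21 CPM, but 87 of its 188 UMIs in WT HFD lay in 1 cell and 24 cells held all of them. Without the top cell of each library the levels were 4.11, 34.7 and 4.57 CPM. Timp1, an inhibitor of matrix metalloproteinases, stood at 30.3, 88.3 and 38.8 CPM, with 97 of 258 UMIs of WT HFD in 1 of the 95 cells that held it, and at 27.1, 55.5 and 31.8 without the top cells. WT HFD stayed the highest library for both genes. Timp1 was also higher in WT HFD in other FAPs (log2 1.22; 1.54 in members), whereas Lyz2 was lower there (−1.37; 2.91 in members). The macrophage markers given above were high in the same library, and their part in the result was not tested beyond leaving out those cells. Under a stricter gate for FAPs (at least 2 UMIs of Pdgfra and 10 of Dcn) the ratio of Lyz2 was −0.31. Hexim1, an inhibitor of transcription elongation, stood at 159, 84.5 and 165 CPM, low in WT HFD alone.

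The remaining fixed lists held no gene past 1.5-fold between diets: the FAP1 genes (6 measured, rule genes included, median −0.15), FAP2 genes (7, 0.21), adipogenic regulators (5, 0.07), glucocorticoid response (12, 0.06), IGF system (7, 0.25), growth factors (6, −0.02), TGF-β pathway (15, 0.04), ectoenzymes (6, −0.01) and interferon response (4, 0.06). Complement had C7 alone (8 measured, median 0.01) and lipid handling Scd2 alone (6, −0.15). The members' own 4 genes lay within 1.5-fold, with log2 ratios of −0.01 (−0.07 to 0.04) for Cxcl14, 0.39 (0.19 to 0.60) for Mme, −0.25 (−0.36 to −0.14) for Hsd11b1 and −0.24 (−0.43 to −0.06) for Kcnk2. In the other FAPs the same ratios were −0.10, 0.71, −0.52 and 0.42, so Kcnk2 had opposite signs.

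Between genotypes on HFD, members of KO HFD had higher levels of 4 of 16 immediate early and stress genes, 2 of 5 interferon response genes and Postn than members of WT HFD. Of 2979 genes that reached 50 CPM in WT HFD or KO HFD, 35 (1.17%) were at least 1.5-fold higher in KO HFD and 12 (0.403%) at least 1.5-fold lower. The median log2 ratio was −0.03. The counting intervals of all these calls left out no change, which the thresholds again lead to by themselves. In the other FAPs 13 of 2905 genes were higher and 6 lower. This comparison shares the WT HFD library with the diet comparison, so a gene that is high or low in WT HFD alone, as Hexim1, Ide, Timp1 and Lyz2 were, appears in both with opposite signs.

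Of 16 immediate early and stress genes, Egr1, Atf3, Nr4a1 and Zfp36 were higher and 0 lower (median 0.40 against −0.03 over all genes). Atf3, a stress-induced transcription factor, stood at 434 CPM (408 to 461) in WT CD, 367 (345 to 390) in WT HFD and 643 (615 to 672) in KO HFD. Nr4a2, an orphan nuclear receptor of the same kind of rapid response, stood at 96.9, 61.6 and 141 CPM. KO HFD was the highest library for both and WT HFD the lowest. The log2 ratios to WT HFD were 0.81 (0.70 to 0.92) for Atf3 and 1.19 (0.94 to 1.45) for Nr4a2, and 0.43 and 0.54 in other FAPs. Ppp1r10 (268, 181 and 344 CPM), a nuclear regulator of a phosphatase, and Tnfsf9 (55.2, 32.9 and 60.0), a ligand of the tumor necrosis factor family, were also among the 10 largest ratios. The summed level of the 16 genes moved with the library in both groups of cells, as given above, and its source was not tested.

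Of 5 interferon response genes Isg15 and Irgm1 were higher and 0 lower (median 0.41). The median is the ratio of Gbp2, at 40.0 CPM in WT HFD and 53.1 in KO HFD members. Gbp2 reached the 50 CPM minimum in KO HFD alone, so the median is no evidence on the list. Isg15, a ubiquitin-like protein induced by interferon, stood at 44.6 CPM (36.6 to 53.8) in WT CD, 55.8 (47.6 to 65.0) in WT HFD and 103 (92.2 to 115) in KO HFD members. In other FAPs it stood at 42.9, 53.0 and 38.9 CPM. KO HFD was thus the highest library in members and the lowest in other FAPs, with log2 ratios to WT HFD of 0.89 (0.61 to 1.17) and −0.45. Irgm1, an interferon-induced GTPase, stood at 99.4, 88.3 and 142 CPM in members (0.69, 0.46 to 0.92) and at 66.2, 53.9 and 83.0 in other FAPs (0.62), so KO HFD was high in both. The Isg15 UMIs came from 138 of 394 KO HFD members, with 20 of 317 in the top cell. The difference between the groups of cells was not tested, since each is 1 pair of libraries.

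Of 20 interstitial matrix genes 1 was higher, Postn, and 0 lower (median −0.07). Postn reached the 50 CPM minimum in KO HFD alone, the library where it was high, so this count is no evidence on the list. Postn stood at 47.4 CPM (39.2 to 56.9) in WT CD, 30.1 (24.2 to 37.1) in WT HFD and 95.5 (84.9 to 107) in KO HFD members, a log2 ratio of 1.66 (1.32 to 2.02) to WT HFD. In other FAPs it stood at 154, 209 and 172 CPM (−0.28). Postn came from 12, 28 and 35 members, and without the top cell of each library the levels were 29.2, 25.8 and 76.2 CPM. The high level lay in members leaning to Dio2 Pthlh Col8a1, at 131, 63.1 and 258 CPM, and the ratio dropped to 0.89 when Kcnk2 was left out of the rule. Col6a5, a collagen VI chain, stood at 39.3, 31.1 and 67.1 CPM in members (1.11, 0.74 to 1.48) and at 181, 160 and 320 in other FAPs (1.0), so KO HFD was high in both.

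Of 11 chemokine and cytokine genes Cxcl1 (940, 732 and 1220 CPM) and Il6 (20.4, 34.2 and 53.4) were higher and 0 lower. Il6 reached the 50 CPM minimum in KO HFD alone, the library where it was high, so this count is no evidence on the list. Nppc, at 91.4 CPM in WT HFD and 141 (128 to 155) in KO HFD, was higher past 1.5-fold in this comparison too, with a log2 ratio of 0.63 (0.40 to 0.85). Hmgb2, a chromatin protein abundant in dividing cells, stood at 71.2, 45.5 and 89.3 CPM. Inhba, which encodes the activin A chain, stood at 55.6, 77.7 and 49.5 CPM, high in WT HFD alone (−0.65, −0.96 to −0.35, for the genotypes; −0.48 in other FAPs). Apod, a lipocalin used to define another class, stood at 610, 609 and 399 CPM in members and at 366, 197 and 291 in other FAPs. Pla1a, a phospholipase on the FAP2 list, stood at 112, 148 and 98.4 CPM. Inhba, Apod, Pla1a and Tead1 (37.6, 59.6 and 37.8 CPM) passed 1.5-fold the same way in 13, 8, 8 and 12 of 15 alternatives.

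**Figure D5:**
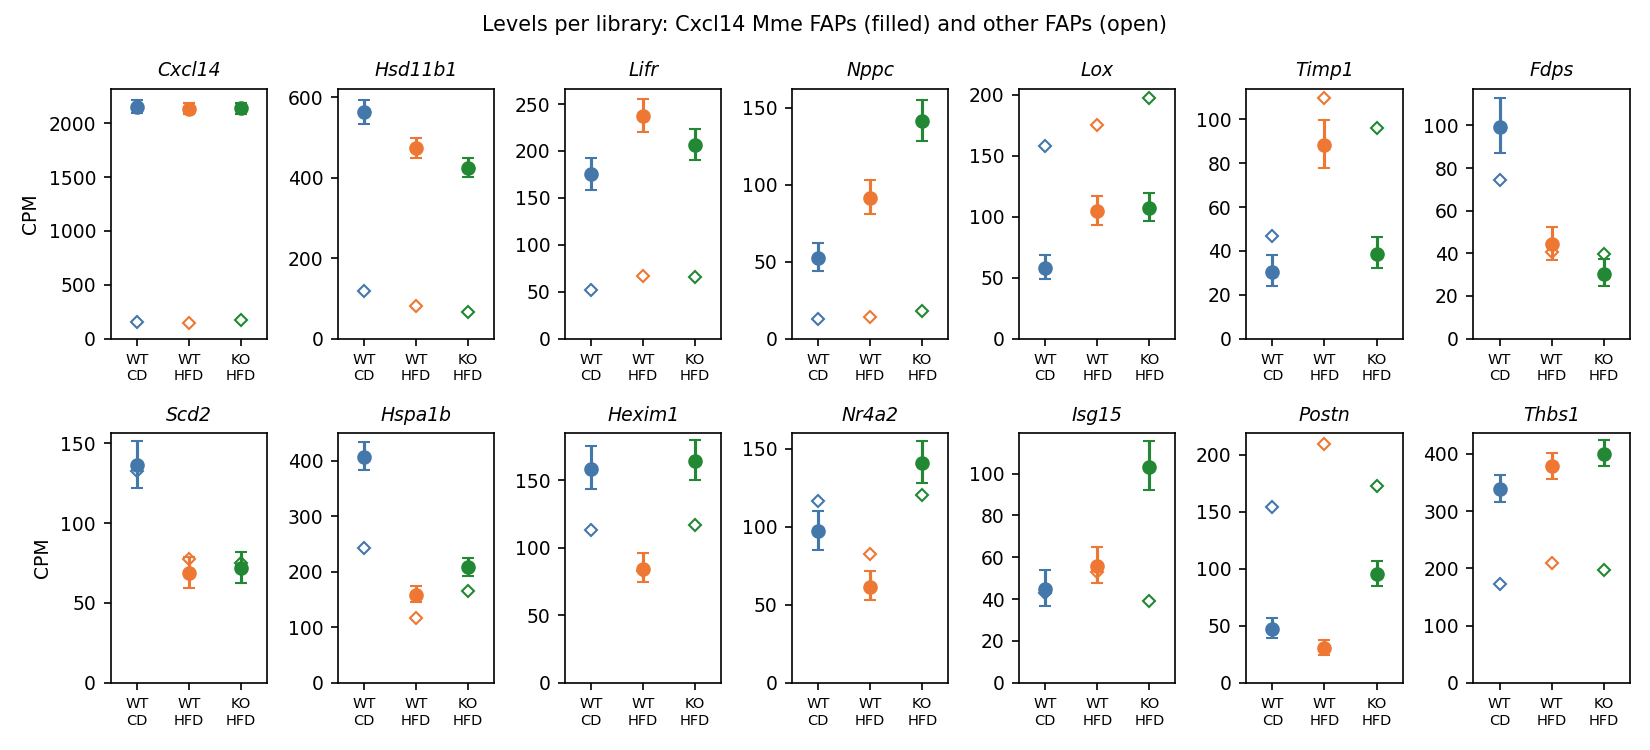
CPM (y axes from 0) of 14 genes by library, for the Cxcl14 Mme FAPs (filled; lines are 95% Poisson intervals, counting error only) and other FAPs (open). Fdps, Scd2 and Hspa1b are highest in WT CD in both groups of cells, while Isg15 is highest in KO HFD in the Cxcl14 Mme FAPs only.

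Eif3j1 and Eif3j2, near-identical copies of a translation initiation factor gene, went in opposite directions in the genotype comparison (log2 −2.0 and 2.59). Eif3j1 stood at 74.0, 98.9 and 24.8 CPM and Eif3j2 at 6.95, 9.93 and 60.0 CPM, with the same pattern in other FAPs (89.5, 101 and 24.4, and 11, 11.9 and 58.9). Their sum was 81.0, 109 and 84.7 CPM, a log2 ratio to WT HFD of −0.36 (−0.60 to −0.12). The split between the copies, rather than their sum, thus separated KO HFD from both WT libraries, and a sequence difference between the strains cannot be told apart from a change in level.

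The remaining lists held no gene past 1.5-fold between genotypes: the FAP1 genes (6 measured, median 0.02), adipogenic regulators (5, 0.18), lipid handling (6, −0.03), glucocorticoid response (12, 0.23), basement membrane (14, −0.09), complement (8, 0.08), IGF system (7, −0.03), growth factors (6, 0.05), TGF-β pathway (15, 0.09) and ectoenzymes (6, −0.04). The FAP2 genes had Pla1a alone (8, −0.06). Of the 20 sterol genes 13 were higher and 7 lower with a median of 0.11, while 48.3% of 11725 genes with at least 10 UMIs were higher, and past 1.5-fold 0 were higher and 2 lower, against 7.47% and 6.93% of those genes. Cxcl14, Mme, Hsd11b1 and Kcnk2 had log2 ratios of 0.00 (−0.05 to 0.05), −0.14 (−0.32 to 0.05), −0.15 (−0.26 to −0.04) and 0.20 (0.02 to 0.37) for KO HFD against WT HFD.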

How the data were processed

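The authors dissociated costal diaphragm with collagenase, captured live mononuclear cells with 10x Genomics 3′ v3.1 chemistry, and aligned and counted reads against mm10. The submitters' processing notes name Cell Ranger 6.1.1 and the matrix headers 6.1.0. The deposited values are whole-number UMI counts (32285 genes, cell-containing barcodes only), without normalisation. The groups were taken from the sample titles.

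All 12275 barcodes were kept. Per cell, counts were scaled to 10000, log-transformed (log1p) and z-scored per gene over the FAPs, and the 4 genes of each of 7 sets were averaged. The other 6 sets were Dpp4 Sema3c Efhd1 Stmn4, Sfrp4 Spon2 Slc6a2 Vit, Fmod Sfrp2 Tnmd Thbs2, Gdf10 Rbp4 Penk Apod, Dio2 Pthlh Col8a1 Aspn and Agt Ptx3 Has1 Cyp1b1. The authors' own cluster names were not used, so the class was rebuilt. UMIs were summed per library and compared as CPM. A gene counted as higher or lower at 1.5-fold with at least 50 CPM in either group, 1.5-fold being the fold the study used. A gene could thus enter a count through the group where it was high, so that its own change admitted it. Intervals (95%) were exact Poisson for levels, exact Clopper-Pearson for shares (for a count of 0, a limit of 3 counts of the total), Newcombe for differences of shares and exact conditional binomial for ratios. With 1 library per group there was no test.

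The members and lists were chosen with earlier results of these data known. Genes named were those of the rule and gate, Thbs1, the 15 highest and 10 lowest against other FAPs past 1.5-fold in each library, the 10 largest ratios in each direction per comparison, the 5 whose ratio differed most from that in other FAPs, and list members with the highest level or past 1.5-fold. Gene models without a name and mitochondrial genes were left out, and some genes that met these rules are not reported here and were taken out of the lists. Thinning drew 3000 UMIs per cell and left out shallower cells (20 members). Scrublet (expected rate 0.06) marked 52 (1.26%), 41 (1.09%) and 58 (1.33%) cells as doublets in WT CD, WT HFD and KO HFD, 2 of them members, and doublets were left out in an alternative only. Other alternatives were a stricter gate, a larger lead, z-scores within a library, sets without 1 gene, a quality filter, TMM scaling, other minimum levels and a mean over cells. Python 3.11.15, numpy 2.4.6, scipy 1.17.1, scanpy 1.11.5, matplotlib 3.10.9 and edgeR 4.0.16 (R 4.3.3; scaling only) were used, and the counting was tested on simulated data. Promoter sequences are from RefSeq (GRCm38.p6).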

Additional observations from a re-analysis of the deposited data

Results flagged for a closer look

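Cd74, the invariant chain of MHC class II made by antigen-presenting cells, went in opposite directions in the 2 groups of FAPs between the diets. Its log2 ratio of WT HFD to WT CD was 1.19 in the Cxcl14 Mme FAPs (36.4, 83.2 and 6.52 CPM in WT CD, WT HFD and KO HFD) and −2.89 in other FAPs (65.8, 8.87 and 25.2 CPM). The difference was not tested, since each group is 1 library. In the Cxcl14 Mme FAPs of WT HFD 198 of 243 UMIs (81.5%) lay in 1 cell, and without the top cell of each library the levels were 15.2, 15.5 and 3.93 CPM. In other FAPs the top cell held 34.3% of the UMIs in WT CD, 18.4% in WT HFD and 66.7% in KO HFD.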

How the results depend on the processing

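Under 10 other ways of choosing the members their number ranged from 860 to 1132, and the difference of KO HFD from WT HFD in share ranged from −1.98 to 0.084 points, with 0 inside its interval in each. Under 13 alternatives that kept the 50 CPM minimum, including 2 chosen after seeing the data (leaving out Gm42418, AY036118 and Lars2 from the totals, and leaving out each gene's top cell), the genes past 1.5-fold numbered 23 to 46 higher and 23 to 38 lower between diets, and 24 to 45 higher and 8 to 18 lower between genotypes. The minimum level moved the counts most. At 20 CPM they were 180 and 82 between diets, 99 and 73 between genotypes, and 38 list genes in place of 21. With only 10 UMIs required in both libraries together they were 1077 and 742 between diets and 882 and 819 between genotypes, with 98 list genes, which takes in genes whose ratio counting error alone can move past 1.5-fold. With the stricter gate (Pdgfra at 2 and Dcn at 10 UMIs) the diet ratio of Cd74 became −2.64 and that of Lyz2 −0.31, and the genotype ratio of Cd74 became 0.10. Without Hsd11b1 in the set the diet ratio of Cd74 was −0.60. The other named genes past 1.5-fold kept their sign. Timp1 passed 1.5-fold between genotypes in 12 of 15 alternatives (highest −0.32). No paired analysis was possible because each group is 1 library. The spread between mice is unknown.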

Other observations

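Gfra2, the co-receptor for neurturin, was chosen after its values were seen. It stood at 8.59, 29.1 and 21.2 CPM in the Cxcl14 Mme FAPs of WT CD, WT HFD and KO HFD, under the 50 CPM minimum, with a log2 ratio of 1.76 for WT HFD against WT CD and 0.27 in other FAPs. Osmr, the oncostatin M receptor, stood at 96.1, 90.7 and 94.2 CPM against 51.8, 60.1 and 65.1 in other FAPs, and Il11ra1, the interleukin-11 receptor, at 586, 535 and 527 CPM against 502, 503 and 531.

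The transcripts Gm42418, AY036118 and Lars2, which take up a large share of many 10x libraries, summed to 67129, 57364 and 49558 CPM in members and to 73066, 61942 and 52509 in other FAPs, highest in WT CD. Immunoglobulin genes summed to 75.3, 3.08 and 4.24 CPM in members and to 2658, 3.55 and 638 in other FAPs, where 1 cell held 99.3% of the Igkc UMIs of KO HFD. Between diets Mpp6 (42.5, 56.1 and 42.4 CPM) and Tmem176b (55.2, 81.5 and 59.3) lay within 1.5-fold in members. Their log2 ratios of WT HFD to WT CD were 0.40 and 0.56, with the opposite sign in other FAPs (−0.57 and −0.43). Between genotypes Rian, a noncoding RNA of an imprinted cluster, stood at 118, 109 and 172 CPM (0.66; −0.11 in other FAPs), and passed 1.5-fold in 11 of 15 alternatives (lowest 0.37).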
